A study of Mus musculus with 2 samples.

Results

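The genes described here are 7 matrix metalloproteinase genes (Mmp2, Mmp8, Mmp9, Mmp12, Mmp13, Mmp14 and Mmp19) and 3 genes of their tissue inhibitors (Timp1, Timp2 and Timp3), chosen by gene symbol as a family of enzymes with its inhibitors. They are 10 of the 55536 annotated genes in the deposited tables, of which 22028 are protein-coding, and all 10 are protein-coding. They were measured by sequencing total RNA depleted of ribosomal RNA, taken from primary macrophages grown from bone marrow (BMDM) of the mouse strain C57BL/6J. The only group was given lipid A, the part of bacterial lipopolysaccharide that engages the receptor TLR4, at 100 ng/ml for 50 minutes, and it holds 2 libraries that the labels call biological replicates. An untreated library was not analysed here, so the levels below are not responses to the treatment, and no test between conditions was possible. The description names nucleoplasmic RNA while the cell part label says nucleus. Age and sex were not collected per the labels, and both libraries carry 1 donor label, so the spread between them may be technical. The RNA input was 1 µg in replicate 2 and 500 ng in replicate 1.

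Matrix metalloproteinases are zinc enzymes that cut collagens, elastin and other proteins of the extracellular matrix, and also cytokines and surface receptors. Most are secreted as inactive proenzymes, and a few, such as the product of Mmp14, stay on the cell membrane. TIMP proteins bind the active site of these enzymes, and TIMP2 also forms a complex with the Mmp14 product that activates the proenzyme of Mmp2. In macrophages these genes are known for matrix remodelling, migration and the shedding of signals.

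The 2 libraries held 20495545 expected counts on genes in replicate 2 and 10342882 in replicate 1, so values of replicate 2 carry the smaller counting error. Levels are given as TPM, transcripts per 1000000, a scale that divides counts by transcript length and allows levels of different genes to be compared. Among genes that averaged 1 TPM or above, the median log2 ratio of TPM, replicate 2 over replicate 1, was -0.69 over the 11380 genes with a value above 0 in each. The SD of each gene contains this shift. All 10 macrophage markers were at or above 1 TPM in each library, with a summed level of 3090 TPM in replicate 2 and 3750 TPM in replicate 1. Of 10 neutrophil markers 2 were, with sums of 5.03 and 5.07 TPM in replicates 2 and 1, and of 10 stromal markers 0 were, with sums of 0.42 and 1.06 TPM.

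Of the 10 genes, 6 were at or above 1 TPM in each library and 4 were below 1 TPM in both. Over all protein-coding genes, 8536 of 22028 (38.8%) were at or above 1 TPM in each. The 6 were Mmp12, Timp2, Mmp13, Mmp14, Mmp19 and Mmp8, in that order of TPM in each library, and the 4 were Timp1, Mmp2, Mmp9 and Timp3. The median of the 10 genes was 1.88 TPM in replicate 2 and 2.48 TPM in replicate 1, beside 0.24 and 0.33 TPM over all protein-coding genes. In bulk RNA, fewer cells of a type and less RNA per cell cannot be told apart.

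**Figure D1:**
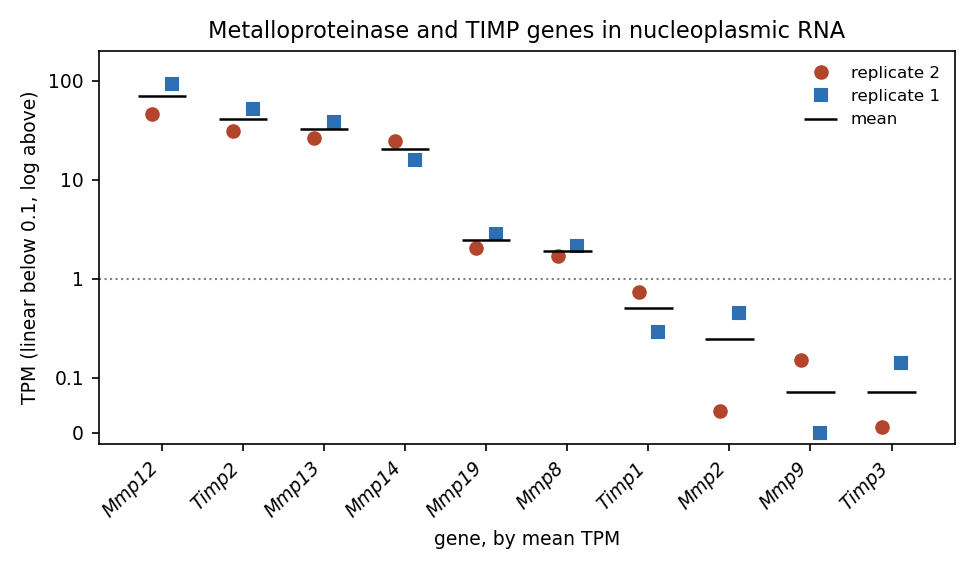
Level of the 10 genes in TPM (vertical axis, linear below 0.1 and logarithmic above), in replicate 2 (circles) and replicate 1 (squares), with the mean of both as a bar and a dotted line at 1 TPM. Mmp12, Timp2, Mmp13 and Mmp14 lie above 10 TPM in both libraries, and Mmp14 is the one of these 4 whose replicate 2 value is the higher.

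The secreted proteinase genes Mmp13, Mmp12 and Mmp8 lie in 1 cluster of 10 Mmp genes on mouse chromosome 9, between 7272514 and 7699585 on the mm10 build, a span of 427.1 kb. RefSeq gives promoter sequence (build GRCm38.p6, the mm10 assembly) for all 10 genes of the cluster, and for 7 of the 10 genes described here. Entries were not given for Mmp2, Mmp9 and Mmp19. Each entry runs from 250 bases before a RefSeq start to 50 bases from the start on, and 4 short motifs were searched in it on both strands. The AP-1 motif TGANTCA is known as a binding site of Fos and Jun dimers and was in 7.81% of 32851 mouse promoters. The TATA box TATAAA, which positions the start of transcription, was in 13.6%, the GC box GGGCGG in 35.7% and a short kappa-B form, GGNNNTTCC, in 18.5%.

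The sequences below run from 110 bases before the start to 20 bases from the start on, 5′ to 3′, and are shown because genes with nearly the same motifs differ widely in level. Capitals mark AP-1, TATA box and GC box matches, none of which is evidence of binding in these cells. Mmp13 (chr9:7272404-7272533, plus strand) and the downstream start of Mmp12 (chr9:7347264-7347393, plus strand) are from the abundant genes. Mmp3 (chr9:7445712-7445841, plus strand) and Mmp10 (chr9:7502232-7502361, plus strand) were below 1 TPM in both libraries. The upstream start of Mmp12 (chr9:7344287-7344416, plus strand), Mmp8 (chr9:7558319-7558448, plus strand) and Mmp27 (chr9:7571286-7571415, plus strand) are the starts of detected cluster genes without an AP-1 match.
Mmp13: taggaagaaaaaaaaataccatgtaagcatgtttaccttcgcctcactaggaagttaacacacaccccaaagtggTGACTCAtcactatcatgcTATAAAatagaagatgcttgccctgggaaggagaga
Mmp12 downstream start: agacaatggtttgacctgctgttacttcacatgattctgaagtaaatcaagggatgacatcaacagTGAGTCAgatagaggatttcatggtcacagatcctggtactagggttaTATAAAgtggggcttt
Mmp3: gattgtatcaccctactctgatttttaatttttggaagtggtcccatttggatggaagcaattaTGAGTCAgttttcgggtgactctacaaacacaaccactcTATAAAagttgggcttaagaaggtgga
Mmp10: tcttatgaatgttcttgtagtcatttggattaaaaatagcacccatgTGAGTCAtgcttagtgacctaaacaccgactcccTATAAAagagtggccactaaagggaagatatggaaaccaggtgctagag
Mmp12 upstream start: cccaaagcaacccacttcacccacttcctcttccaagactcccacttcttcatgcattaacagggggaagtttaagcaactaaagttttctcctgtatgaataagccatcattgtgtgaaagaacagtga
Mmp8: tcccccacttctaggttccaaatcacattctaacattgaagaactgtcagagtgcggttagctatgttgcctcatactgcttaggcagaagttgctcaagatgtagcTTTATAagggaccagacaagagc
Mmp27: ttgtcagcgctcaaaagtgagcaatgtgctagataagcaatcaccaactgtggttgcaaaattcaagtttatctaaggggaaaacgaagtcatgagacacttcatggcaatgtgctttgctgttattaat

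Of the 10 cluster genes, 8 held an AP-1 match and 9 a TATA box, at any position in an entry, and 8 held both at 1 start. Both were in 1.54% of all promoters, a share of entries rather than genes, while Mmp12 and Mmp7 of the cluster have 2 entries each. The TATA match nearest to the start ranged from 58 bases before it in Mmp20 to 4 after it in Mmp12. The first base of the AP-1 match lay 35 bases before the start in Mmp13, 44 before the downstream start of Mmp12, 46 in Mmp3 and 63 in Mmp10. The TATA box began 16 bases before the RefSeq start in Mmp13, 7 in Mmp3 and 29 in Mmp10. In Mmp12 it began 4 bases after the downstream RefSeq start. The isoforms Mmp12-204, Mmp12-205 and Mmp12-206 are annotated to begin further on, at 7347406, so this TATA box lies before their start. Mmp8 held a TATA box on the reverse strand 3 bases before its start and no AP-1 match, and Mmp27 held neither. Of the 8 genes with an AP-1 match, 2 were at or above 1 TPM in each library and 6 were below 1 TPM in both. The short kappa-B form was found in the Mmp1a and Mmp1b entries of the cluster. These matches describe the windows, and their use in these cells was not measured.

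Mmp12 (ENSMUSG00000049723.14, chr9:7344381-7369499, plus strand) encodes macrophage elastase, which degrades elastin. It had 45.8 TPM in replicate 2 and 93.4 TPM in replicate 1, on 3550 and 2356 expected counts. It had the highest level of the 10 genes in both libraries, with a mean of 69.6 ± 33.7 TPM (SD, n = 2), and ranked 541 of 22028 protein-coding genes by mean TPM. Mmp12 alone took 45.6% of the summed TPM of the 7 proteinase genes in replicate 2 and 61.2% in replicate 1.

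Mmp13 (ENSMUSG00000050578.10, chr9:7272514-7283331, plus strand) encodes the collagenase that cuts fibrillar collagen in rodents. It had 26.1 TPM in replicate 2 and 38.1 TPM in replicate 1, on 2197 and 1051 expected counts, with a mean of 32.1 ± 8.54 TPM (SD, n = 2). Mmp12 was 1.76 times as high as Mmp13 in replicate 2 and 2.45 times in replicate 1, so their order held in both libraries, although their ranges of mean ± SD meet. Without length correction, in CPM (counts per 1000000 counts on genes), Mmp13 had 107 and 102 CPM in replicates 2 and 1.

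Mmp8 (ENSMUSG00000005800.3, chr9:7558456-7568485, plus strand) encodes neutrophil collagenase and was low. It had 1.69 TPM in replicate 2 and 2.14 TPM in replicate 1, on 128 and 53 expected counts, with a mean of 1.92 ± 0.318 TPM (SD, n = 2). Among the neutrophil markers, the lactoferrin gene Ltf was highest at 1.56 and 1.78 TPM in replicates 2 and 1, followed by S100a8 at 1.27 and 1.67 TPM and S100a9 at 1.09 and 0.92 TPM. Ly6g and Retnlg had 0 counts in both libraries. Mmp8 lay above each of the 10 markers in both libraries, and Ltf rested on 27 and 20 expected counts in replicates 2 and 1. In the other deposited quantification Mmp8 had 0.397 and 1.36 TPM in replicates 2 and 1, and Ltf 0.363 and 2.14 TPM. Ltf was thus the higher there in replicate 1. So was Cxcr2, which had 0.279 and 2.08 TPM there in replicates 2 and 1, beside 0.04 TPM in each gene table. The part of other cells in the Mmp8 level was not tested.

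Mmp19 (ENSMUSG00000025355.7, chr10:128790910-128800824, plus strand), a secreted proteinase outside the cluster, had 2.06 TPM in replicate 2 and 2.82 TPM in replicate 1, on 217 and 101 expected counts. Its mean of 2.44 ± 0.537 TPM (SD, n = 2) and that of Mmp8 differed by less than their spread, although Mmp19 was the higher in each library, 1.22 times in replicate 2 and 1.32 times in replicate 1. The deposited posterior SD of its count was 5.6 in replicate 2 and 3.31 in replicate 1, while it was 0 in both for 8 of the 10 genes. The opposite strand holds the antisense gene Gm47093 across its whole length and 789 bases of Tmem198b, which had 1.23 and 1.62 TPM in replicates 2 and 1. Gm47093 had 0 counts in both gene tables, but 0.317 TPM in replicate 2 and 4.47 TPM in replicate 1 in the other deposited quantification. The strand setting of the counting is not given in the sources used here, so reads of a gene and of its antisense partner cannot be told apart.

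The gelatinase genes Mmp2 (ENSMUSG00000031740.8, chr8:92827291-92853420, plus strand) and Mmp9 (ENSMUSG00000017737.2, chr2:164940780-164955850, plus strand), whose enzymes degrade denatured collagen and basement membrane collagen, were at the limit of detection. Mmp2 had 0.04 TPM in replicate 2, on 4 expected counts, and 0.45 TPM in replicate 1, on 3. Mmp9 had 0.15 TPM in replicate 2, on 14 expected counts, and 0 TPM in replicate 1, on 0. By CPM, Mmp9 was at 0.683 in replicate 2 (exact 95% Poisson interval 0.373 to 1.15) and at 0 in replicate 1 (0 to 0.357). Both genes were present at most at a low level at this depth, and such intervals hold counting error alone, because the tables record no molecular identifiers and reads need not be independent molecules.

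Mmp14 (ENSMUSG00000000957.11, chr14:54431612-54445364, plus strand) encodes MT1-MMP, the membrane-bound collagenase. It had 24.8 TPM in replicate 2 and 15.8 TPM in replicate 1, on 1527 and 339 expected counts, with a mean of 20.3 ± 6.38 TPM (SD, n = 2). Of the 6 genes above 1 TPM, the other 5 had their higher TPM in replicate 1 and Mmp14 in replicate 2. The authors' deposited interval of the posterior TPM was 22.9 to 26.1 in replicate 2 and 13.5 to 18.1 in replicate 1. Its level is not given in the sources used here. The 2 intervals did not meet, and neither did those of Mmp12, Timp2 and Mmp13, which were the higher in replicate 1. Intervals that do not meet therefore do not set Mmp14 apart from these genes. Mmp13 was 1.05 times as high as Mmp14 in replicate 2 and 2.42 times in replicate 1. Their order thus held in each library, although their ranges of mean ± SD meet. Mmp14 was 12 times as high as Mmp19, the next gene in order, in replicate 2 and 5.59 times in replicate 1.

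Timp2 (ENSMUSG00000017466.9, chr11:118301069-118355740, minus strand) was the abundant inhibitor gene. It had 31.3 TPM in replicate 2 and 51.2 TPM in replicate 1, on 3734 and 1906 expected counts, with a mean of 41.2 ± 14.1 TPM (SD, n = 2) and rank 987 among protein-coding genes. It was second to Mmp12 in each library by TPM, yet by CPM it was at 182 in replicate 2, above the 173 CPM of Mmp12, and at 184 in replicate 1, below 228. The mean levels of Timp2 and Mmp13 differed by less than their spread, with Timp2 the higher in each library, 1.2 times in replicate 2 and 1.34 times in replicate 1. Cep295nl, on the same strand within Timp2, had 1.77 and 3.43 TPM in replicates 2 and 1.

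Timp1 (ENSMUSG00000001131.11, chrX:20870166-20874735, plus strand), an inhibitor known to be induced in many inflamed tissues, had 0.73 TPM in replicate 2 and 0.29 TPM in replicate 1. These levels rested on 16 and 2 expected counts, or 0.781 CPM (exact 95% Poisson interval 0.446 to 1.27) and 0.193 CPM (0.0234 to 0.699), so the intervals overlapped. The gene lies within Syn1, which is on the opposite strand and held 91 and 57 expected counts in replicates 2 and 1, more than Timp1 in both.

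Timp3 (ENSMUSG00000020044.13, chr10:86300372-86349506, plus strand), whose protein binds to the matrix and also inhibits ADAM proteinases, had 0.01 TPM in replicate 2 and 0.14 TPM in replicate 1, on 2 and 7 expected counts. The other quantification gave it 0.423 TPM in replicate 2 and 3.02 TPM in replicate 1, on 101 and 204 estimated counts. There, 97.6% and 91.0% of its TPM in replicates 2 and 1 lay in Timp3-203 and Timp3-204, which are annotated as processed transcripts without a protein, and the gene tables gave both of these 0 counts. Timp3 lies within Syn3 on the opposite strand, which had 14 and 6 expected counts. Whether Timp3 reached 1 TPM in replicate 1 therefore depended on the quantification, and its coding isoform was at 0.273 TPM there.

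Summed over genes, the 7 proteinases held 100.6 TPM in replicate 2 against 152.7 TPM in replicate 1, and the 3 inhibitors 32.0 and 51.6 TPM. The ratio of proteinase to inhibitor TPM was 3.14 in replicate 2 and 2.96 in replicate 1, close to each other although both sums differed between the libraries. Its size depends on the scale, and by CPM the ratio was lower in each library. The isoforms of Mmp12 and Mmp14 annotated as noncoding, described below, are counted in it. Mmp27, at 36.7 and 67.8 TPM in replicates 2 and 1, is not 1 of the 7 and is left out of this ratio. Timp2 made up 97.7% and 99.2% of inhibitor TPM in replicates 2 and 1, so the other inhibitor genes contributed little on this scale. Against Mmp14, the enzyme with which its protein forms a complex, Timp2 was 1.26 times as high in replicate 2 and 3.25 times in replicate 1. That ratio moved between libraries more than the ratio of the sums did.

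The promoters of the inhibitor genes and of Mmp14 differed in motifs from those of the cluster. Their windows are shown for this contrast, with GC boxes in capitals, in Mmp14 (chr14:54431488-54431617, plus strand), Timp2 (chr11:118355392-118355521, minus strand) and Timp1 (chrX:20870056-20870185, plus strand).
Mmp14: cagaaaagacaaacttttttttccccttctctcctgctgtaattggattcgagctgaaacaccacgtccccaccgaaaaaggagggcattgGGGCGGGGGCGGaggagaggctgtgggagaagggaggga
Timp2: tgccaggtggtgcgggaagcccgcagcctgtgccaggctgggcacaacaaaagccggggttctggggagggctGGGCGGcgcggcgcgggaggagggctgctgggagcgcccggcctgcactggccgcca
Timp1: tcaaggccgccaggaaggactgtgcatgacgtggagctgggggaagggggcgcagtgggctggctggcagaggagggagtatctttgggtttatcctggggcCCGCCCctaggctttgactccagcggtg

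The GC box nearest to the start began 13 bases before it in Mmp14, 37 before it in Timp2 and 8 before it in Timp1, and 13 bases after it in Timp3. None of these 4 entries held the AP-1 or TATA letters searched, while the cluster entries held no GC box. Mmp14 and Timp2, with GC boxes, were among the 4 highest of the 10 genes, and Timp1 and Timp3, also with GC boxes, among the 4 lowest.

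Along the chromosome 9 cluster, genes with many reads lay next to genes with none. Mmp13 and Mmp12 at 1 end were followed by Mmp1b at 0.02 and 0 TPM in replicates 2 and 1, by Mmp3 and Mmp1a at 0 counts in both, and by the stromelysin gene Mmp10 at 0.27 and 0.59 TPM. Mmp8 came next, and then Mmp27 (ENSMUSG00000070323.11, chr9:7571396-7581885, plus strand) with 36.7 TPM in replicate 2 and 67.8 TPM in replicate 1, on 2042 and 1223 expected counts. Mmp20, the enamel proteinase gene, had 0 counts in both, and Mmp7, the matrilysin gene, was at 0.07 and 0 TPM. Thus 4 of 10 cluster genes were at or above 1 TPM in each library, 3 of them among the genes described here.

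Mmp27 had a mean of 52.2 ± 22.0 TPM (SD, n = 2), between those of Mmp12 and Timp2. It lay below Mmp12 and above Timp2 in each library, although the means differed by less than the spread. Its first base lies 2911 bases past the end of Mmp8, its neighbour on the same strand, which had a mean of 1.92 TPM. Mmp1b overlaps 1261 bases of Mmp12 on the opposite strand and held 1 and 0 expected counts in replicates 2 and 1.

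**Figure D2:**
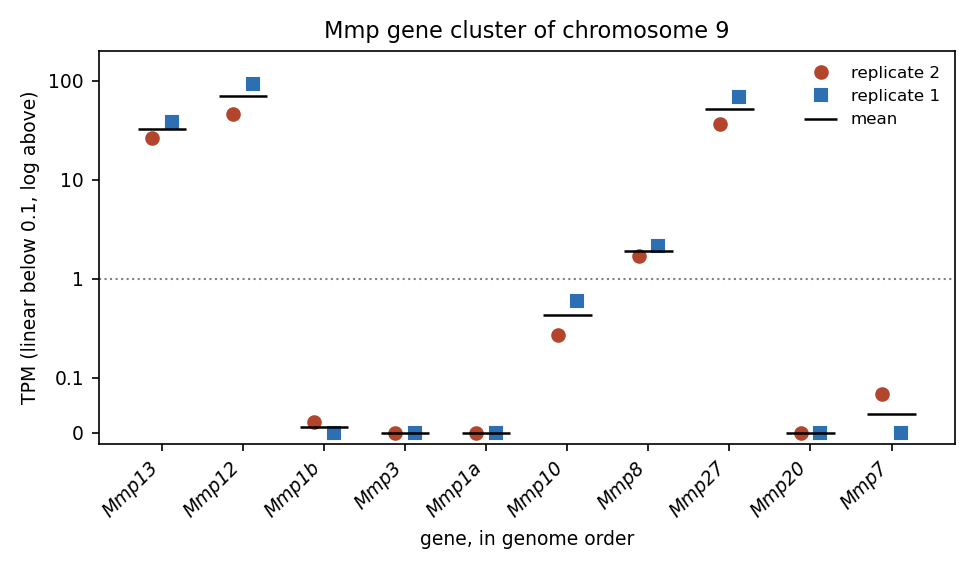
Level in TPM (vertical axis, linear below 0.1 and logarithmic above) of the 10 genes of the Mmp cluster on chromosome 9, in genome order, in replicate 2 (circles) and replicate 1 (squares), with the mean as a bar and a dotted line at 1 TPM. Mmp13, Mmp12, Mmp8 and Mmp27 lie above the line in both libraries, and Mmp3, Mmp1a and Mmp20 lie at 0 in both.

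The isoform tables divided the RNA of Mmp12 and Mmp14 between protein-coding isoforms and annotated forms that make no full protein. Of the 7 Mmp12 isoforms 3 are noncoding, meaning annotated as retained intron, as a target of nonsense-mediated decay or as a processed transcript, and these held 58.3% of Mmp12 TPM in replicate 2 and 42.0% in replicate 1, with a mean of 50.1 ± 11.5% (SD, n = 2). Of the 7 Mmp14 isoforms 4 are noncoding, and these held 49.8% and 44.3% in replicates 2 and 1, with a mean of 47.0 ± 3.89% (SD, n = 2). By expected counts, which carry no length correction, the mean share was 28.9% for Mmp14 and 66.0% for Mmp12. The median over protein-coding genes that averaged 1 TPM or above and have such isoforms was 33.7% over 7675 genes in replicate 2 and 31.0% over 7677 genes in replicate 1. Mmp12 lay above 81.2% of these genes in replicate 2 and above 63.7% in replicate 1, and Mmp14 above 71.6% and 66.0%. By share of TPM, both were thus above the median in both libraries. No such median was calculated for shares of expected counts.

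In Mmp12, the coding isoform Mmp12-203 had 12.1 TPM in replicate 2 and 45.3 TPM in replicate 1, which were 26.4% and 48.5% of the gene, with deposited posterior intervals of 9.22 to 14.4 and 35.3 to 46.8 TPM. The decay target Mmp12-204 had 15.6 and 15.0 TPM in replicates 2 and 1, and the retained intron isoform Mmp12-206 had 10.6 and 23.4 TPM. Of these isoforms Mmp12-203 differed most in TPM between the libraries. Mmp12-204 had similar TPM in both, yet it took 34.0% of the gene in replicate 2 and 16.0% in replicate 1, on 990 and 310 expected counts, while the median gene was lower in TPM in replicate 2. In the other quantification it had 3.3 and 7.68 TPM, 26.8% and 10.8% of the gene. The isoforms begin in 2 regions, at 7344381 to 7344397 and at 7347374 to 7347406, which lie 2977 bases apart. These are the upstream and downstream starts, and the sequences printed above belong to the RefSeq start in each. The 2 isoforms of the upstream start held 26.4% of Mmp12 TPM in replicate 2 and 48.5% in replicate 1, and the 5 isoforms of the downstream start held 73.6% and 51.5%. In the other quantification the downstream start held 64.8% in replicate 2 and 54.1% in replicate 1, beside 45.9% for the upstream start in replicate 1. That 54.1% included 17.1% for Mmp12-205, a form of 410 bases. The first quantification gave Mmp12-205 0.83% of the gene in replicate 1, on 1.65 expected counts. The downstream start thus held the greater share in each library under both, but in replicate 1 of the other quantification this rested on Mmp12-205. All noncoding Mmp12 isoforms begin at the downstream start. Of the coding isoforms, Mmp12-203 of the upstream start was highest in each library in both quantifications. Mmp12-201 and Mmp12-202 of the downstream start had 3.21 and 3.79 TPM in replicate 2 and 7.37 and 1.53 TPM in replicate 1. Use of the 2 starts was not measured.

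In Mmp14, the full-length coding isoform Mmp14-201 had 10.9 TPM in replicate 2 and 6.67 TPM in replicate 1. Mmp14-205, a form of 1548 bases with 1 exon and a retained intron near the start of the gene (chr14:54431718-54433265), had 9.03 and 5.43 TPM in replicates 2 and 1. Both forms were higher in replicate 2, as the gene was, and retained intron forms together held 48.5% of Mmp14 TPM in replicate 2 and 44.3% in replicate 1. Mmp14-205 alone held 36.5% and 34.5%, but 24.0% and 18.7% in the other quantification. The decay target Mmp14-203 held 1.32% and 0% in replicates 2 and 1, but 19.3% and 19.0% in the other quantification. The division among noncoding classes thus depended on the quantification. Mmp13 and Mmp8 have 1 annotated isoform each, and the coding isoform Timp2-201 held 100.0% and 94.2% of Timp2 TPM in replicates 2 and 1. A nuclear fraction holds RNA that is not yet fully spliced, and these tables cannot tell it apart from stable isoforms with an intron.

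**Figure D3:**
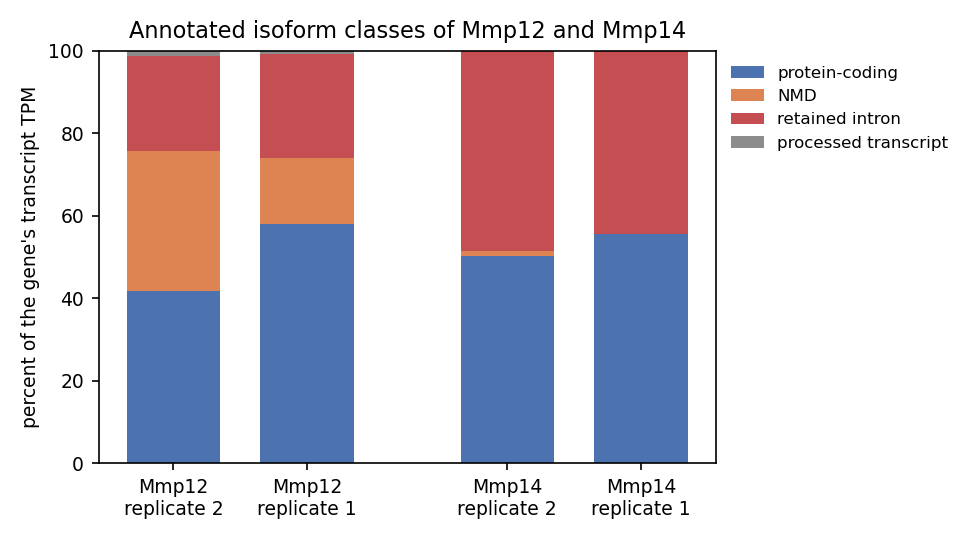
Percent of transcript TPM (vertical axis, from 0 to 100) of Mmp12 and Mmp14 in protein-coding, nonsense-mediated decay (NMD), retained intron and processed transcript isoforms, with replicate 2 to the left of replicate 1 for each gene. Noncoding classes take 58.3% and 42.0% of Mmp12 and 49.8% and 44.3% of Mmp14.

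The replicates were compared gene by gene as the log2 TPM ratio, replicate 2 over replicate 1, minus the median of -0.69. Mmp14 stood 1.35 above the median gene, past 2-fold. The others were within 2-fold, with 0.35 for Mmp8, 0.24 for Mmp19, 0.14 for Mmp13, -0.02 for Timp2 and -0.34 for Mmp12. Without a filter and with 0.5 added to each TPM, Mmp14 had 0.64 and Mmp12 was past 2-fold in its place. Thus, in the filtered comparison, 1 of 6 genes was past 2-fold, beside 11.1% of the 11532 genes that averaged 1 TPM or above, and 1 of 6 was past it upward, beside 6.1%. With 1 library on each side there is no test, and a share of 1 in 6 is no result about the family.

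The Mmp14 ratio came with other differences between the libraries. The osteoclast markers summed to 19.2 TPM in replicate 2 against 22.5 TPM in replicate 1, and 2 of 7 were at or above 1 TPM in each. Within that list Acp5 had 9.58 TPM in replicate 2 against 5.11 TPM in replicate 1. Ctsk had 1.11 and 0.55 TPM and Dcstamp 0.99 and 0.39 TPM, on 26 and 5 counts, whereas Atp6v0d2 was at 7.49 and 16.3 TPM and Ocstamp at 0.06 and 0.08 TPM. These levels and sums are TPM before subtraction of the median log2 ratio of -0.69, by which the median gene was lower in replicate 2. Calcr and Oscar each had 0 counts in replicate 2 and 1 in replicate 1. The 10 stromal markers were all below 1 TPM in each library, with Pecam1 highest at 0.24 and 0.73 TPM in replicates 2 and 1, then Acta2 at 0.05 and 0.15 TPM and Cdh5 at 0.04 and 0.14 TPM. Dcn, Lum and Postn had 0 counts in both gene tables. In the other quantification Pecam1 had 0.587 TPM in replicate 2 and 11.6 TPM in replicate 1. The part of other cell types in the Mmp14 difference was not tested, and input amount and replicate cannot be told apart. In the gene tables Timp1, on 16 and 2 counts, and Mmp9, on 14 and 0, were also higher in replicate 2, on few counts. As deposited, the other quantification gave Timp1 0.315 and 0.709 TPM and Mmp9 0.0607 and 0.27 TPM in replicates 2 and 1. Mmp14 had 7.99 and 15.5 TPM there. These levels contain the shift between the quantifications given below.

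**Figure D4:**
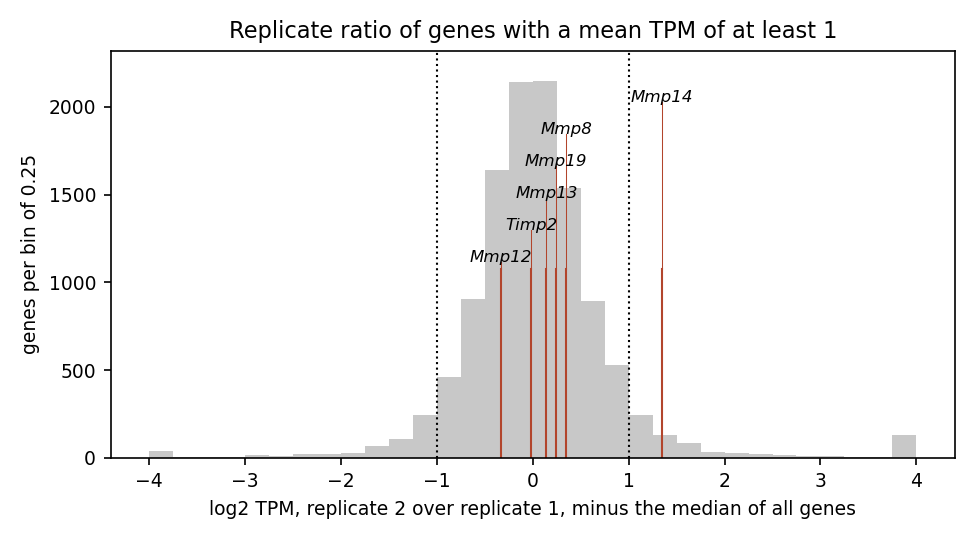
Number of genes that averaged 1 TPM or above (vertical axis, per bin of 0.25) by log2 TPM ratio, replicate 2 over replicate 1, minus the median (horizontal axis, with values past 4 in either direction gathered in the end bins), with the 6 detected genes as vertical lines and dotted lines at 2-fold. Mmp14 at 1.35 is the one past a dotted line.

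The 2 deposited quantifications were compared in the same way, as the log2 ratio of the other quantification over the gene tables. The median gene had a ratio of -1.73 in replicate 2 and -0.31 in replicate 1, so the TPM of a typical gene was lower in the other quantification, more so in replicate 2. The levels quoted from it for single genes, and the cut of 1 TPM applied to them, are as deposited and contain this shift. After subtraction of these medians, 0 of 6 genes were past 2-fold in both libraries, beside 7.71% of 11487 genes. The order of Mmp12, Timp2, Mmp13, Mmp14, Mmp19 and Mmp8 was the same in both sources and libraries. Timp3 entered it in the other quantification, above Mmp8 in replicate 2 and above Mmp19 in replicate 1.

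The rest of the proteolytic system was described by lists of related genes. Of 16 other Mmp genes 1, Mmp27, was at or above 1 TPM in each library, 15 were below 1 TPM in both and 5 had 0 counts in both. Mmp10 and Mmp23 followed with means of 0.43 ± 0.226 and 0.425 ± 0.233 TPM (SD, n = 2). Of 4 other inhibitors 0 were at or above 1 TPM, and Reck, a membrane-anchored inhibitor, had 0.12 and 0.08 TPM in replicates 2 and 1. Tfpi2 had 0.02 and 0 TPM, and Timp4 had 0 counts in both gene tables. In the gene tables, Timp2 was thus the one inhibitor gene above 1 TPM in both libraries. The other quantification differed for Mmp16, which had 0 counts in both gene tables but 0.976 TPM there in replicate 2 and 9.17 TPM in replicate 1, above Mmp19 and Mmp8 in both.

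Of 14 ADAM and ADAMTS genes, which encode related metalloproteinases that shed surface proteins or cut proteoglycans, 9 were at or above 1 TPM in each library. Adam8 led with 93.2 TPM in replicate 2 and 103 TPM in replicate 1, with a mean of 98.2 ± 7.06 TPM (SD, n = 2). Adam17, whose enzyme releases tumour necrosis factor from the cell surface, had 69.3 and 95.5 TPM in replicates 2 and 1, and Adam33 had 25.3 and 39.1 TPM. Adam8 and Adam17, the second at 82.4 ± 18.5 TPM (SD, n = 2), had means above that of Mmp12, and each was above it in both libraries, where Mmp12 had 45.8 and 93.4 TPM in replicates 2 and 1, although the means differed by less than the spread. In the other quantification 8 of the 14 were at or above 1 TPM in each library. Adam12, Adam28 and Adamts9, below 1 TPM in both gene tables, had 0.569, 0.787 and 0.656 TPM there in replicate 2. In replicate 1 they had 10.9, 7.39 and 4.74 TPM there.

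Of 15 genes for activation, docking and clearance of metalloproteinases, 11 were at or above 1 TPM in each library. Cd44, a hyaluronan receptor to which some of these enzymes bind, had 375 TPM in replicate 2 and 724 TPM in replicate 1. Lrp1, an uptake receptor for proteinases and their complexes, had 257 and 459 TPM, and the integrin gene Itgav had 144 and 228 TPM. The urokinase gene Plau had 60.5 and 89.9 TPM in replicates 2 and 1 and the proprotein convertase gene Furin 44.5 and 57.0 TPM, while the plasminogen gene Plg, which is expressed mainly in liver, had 0 counts in both gene tables. Of 12 matrix protein genes 4 were at or above 1 TPM in each library. These were Spp1 (osteopontin) at 747 and 894 TPM, Thbs1 at 104 and 142 TPM, Lamc1 at 7.18 and 13.9 TPM and Vcan at 1.84 and 1.91 TPM, and the elastin gene Eln, whose protein macrophage elastase degrades, had 0 counts in both gene tables.

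**Figure D5:**
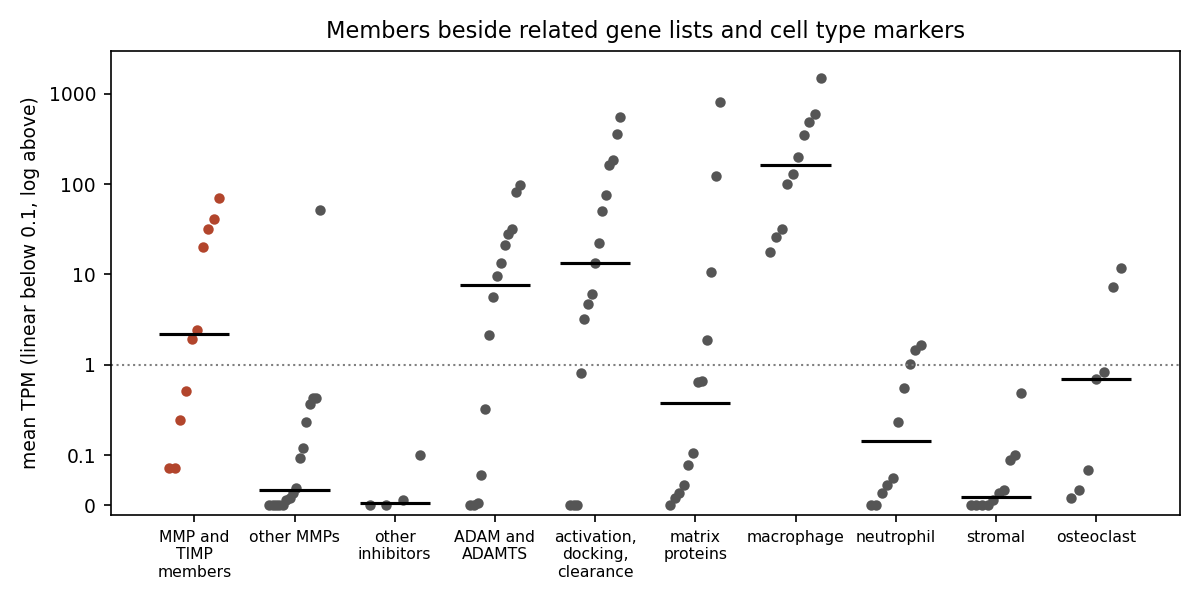
Mean TPM over both libraries (vertical axis, linear below 0.1 and logarithmic above) of each of the 10 genes and of the genes of 9 related lists and marker lists, 1 point per gene, with the list median as a bar and a dotted line at 1 TPM. All 10 macrophage markers lie above the line, and 1 of 16 other Mmp genes does.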

How the data were processed

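Per the labels, both libraries are ribosomal RNA-depleted total RNA-seq of nucleoplasm from 1 group, without an untreated library. Gene and transcript tables deposited by the authors hold expected counts, TPM and a posterior interval of TPM arranged as RSEM writes them, per the file headers, with the posterior SD of the count. The other quantification is a deposited transcript table with estimated counts and TPM in the layout of kallisto, per the file headers, summed here per gene. The authors' readme files name mm10 and annotation M21. The strand setting, trimming and program versions were not given in the sources. TPM depends on effective transcript length, so short RNAs can move every other TPM of a library.

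Symbols, classes and coordinates came from GENCODE M21, in which all 55536 gene identifiers were found. Rows that name no gene were left out of CPM: 97 for spike-ins (0.0967% of counts in replicate 2, 0.504% in replicate 1) and 26248 with numbers as names (0.000102% and 0.000106%). With 3 counts as the limit, a gene at 0 may have up to 0.146 CPM in replicate 2 and 0.29 CPM in replicate 1. At the gene level the posterior SD of the count was 0 in both libraries for 8 of the 10 genes, the others being Mmp19 and Timp3. A noncoding isoform is one not annotated as protein-coding, and its share is a percent of the gene's deposited transcript TPM.

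The genes and the 9 lists with 98 related genes were chosen with earlier results of these data known, so nothing here is independent support. All 10 genes are described. Of each related list the 3 highest genes by mean TPM are named where described (the macrophage markers are given as a list only), and the genes at or above 1 TPM of lists with up to 3 such genes, as are all genes of the chromosome 9 cluster and every gene overlapping 1 of the 10. Other genes, such as Plau, Furin, Plg, Mmp16, Vcan, Eln, Dcstamp, Ocstamp, Calcr, Oscar, Ly6g, Retnlg, Dcn, Lum and Postn, were named after their values were seen. So were Cxcr2, Adam12, Adam28 and Adamts9. Most similar genes could not be ranked with 1 condition. Values are means ± SD over 2 libraries or single values, and no test was run. Python 3.11.15, pandas 2.3.3, numpy 2.4.6 and scipy 1.17.1 were used, with R 4.3.3 and edgeR 4.0.16 for TMM factors of rounded expected counts. The ratio calculation was tested on simulated data. Alternatives were the other quantification, CPM, TPM rescaled over nuclear protein-coding genes, other thresholds and filters, other scalings and leaving out each replicate.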

Additional observations from a re-analysis of the deposited data

How the results depend on the processing

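Of 32 alternative values of the main results, 26 stayed within the spread between replicates or within 1.5 times the main count, and 6 moved. For levels and shares, leaving out either replicate always falls within this spread. CPM and rescaled TPM are on other scales than the spread they were set against, so this tally does not measure robustness. The summed level of the 10 genes was 168 TPM, 96.6 TPM in the other quantification (whose median gene was lower too), 559 in CPM and 780 TPM after rescaling over nuclear protein-coding genes, with 133 to 204 TPM when either replicate was left out. The noncoding share of Mmp12 was 50.1%, and 66.0% by expected counts, with 42.0 to 58.3% when either replicate was left out. That of Mmp14 was 47.0%, 57.2% in the other quantification and 28.9% by expected counts, with 44.3 to 49.8% when either replicate was left out. The number of genes at or above 1 TPM in each library was 6, 4 in the other quantification, where Mmp19 and Mmp8 were below it in replicate 2, and 7 after rescaling, which added Timp1. Mmp14 was the gene past 2-fold between replicates by TPM, by CPM with TMM factors (1.29), with size factors (1.26), in the other quantification (1.19) and with at least 10 counts in both libraries (1.36). Without a filter and with a pseudocount of 0.5 TPM, it was Mmp12 in place of Mmp14 (0.64), since the median log2 ratio of all 55536 genes was then 0 in place of -0.69. Of 98 related genes 39 were at or above 1 TPM in each library, and 34 to 42 over the alternatives. Of 50 alternative levels of single genes, 26 stayed within the spread between replicates and 24 moved, a tally with the same limits. Depth limits Mmp2, Mmp9, Timp1 and Timp3, each on at most 16 expected counts a library. No paired analysis was possible because the series has 1 group.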
